A study of Mus musculus with 8 samples.

Results

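Aminoacyl-tRNA synthetases attach each amino acid to its own transfer RNA, the step on which the accuracy of protein synthesis rests. Messenger RNA of 38 genes of this family was followed in MA-10 cells, a mouse Leydig tumour line. The genes were taken by symbol from a table of 54532 genes and comprised 20 cytosolic enzymes or enzyme subunits (Aars, Cars, Dars, Eprs, Farsa, Farsb, Gars, Hars, Iars, Kars, Lars, Mars, Nars, Qars, Rars, Sars, Tars, Vars, Wars and Yars), 16 mitochondrial enzymes whose symbols end in 2 (Aars2, Cars2, Ears2, Fars2, Hars2, Iars2, Lars2, Mars2, Nars2, Pars2, Rars2, Sars2, Tars2, Vars2, Wars2 and Yars2) and 2 scaffold proteins, Aimp1 and Aimp2. All 38 passed the filter on low counts, which left 13185 genes for testing.

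MTP KO cells were compared with WT cells, with 4 libraries in each group. MTP, the microsomal triglyceride transfer protein, is encoded by Mttp and loads lipid onto apolipoprotein B. All libraries, KO and WT alike, came from cells cultured for 48 h and then stimulated with 0.5 mM 8-BrcAMP, a cell-permeable cAMP analog, for 3 h, so no unstimulated cells enter the comparison. The study made its KO lines by electroporating Cas9 with guide RNAs and growing out single cells. Neither the labels nor the methods name the clone behind these libraries, so the knockout and the growth of a clone cannot be told apart. Nothing in the labels says that the 4 libraries of a group came from separate cultures, and p-values measure the spread between these libraries only.

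Cytosolic enzymes serve the ribosomes of the cytoplasm, and most of the mitochondrial enzymes are separate nuclear gene products that serve the few proteins encoded by mitochondrial DNA. Gars and Kars are exceptions, since each encodes both a cytosolic and a mitochondrial form. Several cytosolic synthetases sit together with Aimp1 and Aimp2 in the multi-tRNA synthetase complex. When amino acids run short or the endoplasmic reticulum is under stress, phosphorylation of the initiation factor eIF2 favours translation of the transcription factor ATF4, and many cytosolic synthetase genes are known ATF4 targets in mammalian cells. Leydig cells are best known for steroid production, not for bulk protein secretion.

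KO libraries held 14927989 to 18394797 counts, and WT libraries held 15075610 to 16321292 counts (exact permutation test, 2-sided p = 0.20). Mttp had 5.09, 4.52, 6.75 and 7.13 CPM (counts scaled by TMM to a common library size) in KO libraries 1 to 4, against 12.9, 11.9, 13.3 and 14.4 CPM in WT libraries 1 to 4. The groups did not overlap, and the log2 fold change was -1.15 (SE 0.14, edgeR adjusted p = 4.45e-06). All 7 Leydig markers examined were detected, and 5 were called higher in KO cells (71.4%, against 21.7% of all tested genes). These were Lhcgr (log2 fold change 1.86), Hsd3b1 (1.66), Insl3 (1.29), Cyp11a1 (1.29) and Inha (0.81). Star (-0.10) and Nr5a1 (0.01) were not called. Of 13 markers of other testis cells 5 passed the filter, and 2 of these were called, both lower in KO cells. Of the macrophage genes, Adgre1 and Ptprc had no counts, while Csf1r had 3.29 to 5.33 CPM in KO libraries and 6.69 to 9.18 CPM in WT libraries (log2 fold change -0.79, edgeR adjusted p = 0.00082). The summed level of those 13 markers was 172 to 197 CPM in KO libraries and 248 to 298 CPM in WT libraries. Most of it was Cdh5, an endothelial marker (99.2 to 118 CPM in KO libraries, 180 to 207 CPM in WT libraries). Pecam1, the other endothelial marker examined, did not pass the filter (0.24 to 0.60 CPM in KO libraries, 0.27 to 0.82 CPM in WT libraries). Sox9, a Sertoli marker, had 44.4 to 58.5 CPM in KO libraries and 44.3 to 65.7 CPM in WT libraries (log2 fold change -0.02). Dhh, another Sertoli marker, had a log2 fold change of 0.16, and Ddx4, a germ cell marker, of 0.42. Neither was called. The part of these markers in the results below was not tested. WT libraries 1 and 4 differed most among replicates (chi-square per degree of freedom 14.8, against 3.40 to 7.98 for the other pairs within a group). MA-10 is a cell line, and the study grew its KO lines from single cells. Counts on markers of other testis cells therefore need not come from such cells. In bulk RNA, fewer cells expressing a gene and less RNA per cell cannot be told apart.

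The promoters below are shown because ATF4 is known to act through composite C/EBP-ATF response elements, whose core reads TGATGNAA. RefSeq promoters (GRCm38.p6, 250 bases before to 50 bases after the start) were found for 29 of the 38 genes, and the motif, searched on both strands, occurred in 5 of them: Aars, Gars, Iars, Tars and Yars. Capitals mark the matching bases, which in all but Yars lie on the opposite strand and read TTGCATCA or TTTCATCA in the direction of the gene.
Aars, whole promoter, chr8:111033592-111033891, plus strand: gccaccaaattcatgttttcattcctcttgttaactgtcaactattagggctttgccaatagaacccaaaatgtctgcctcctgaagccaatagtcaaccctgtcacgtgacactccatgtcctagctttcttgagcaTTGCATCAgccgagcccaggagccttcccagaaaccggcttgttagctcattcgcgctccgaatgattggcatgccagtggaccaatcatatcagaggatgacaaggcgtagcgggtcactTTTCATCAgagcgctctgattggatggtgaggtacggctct
Gars, chr6:55037951-55037998, plus strand: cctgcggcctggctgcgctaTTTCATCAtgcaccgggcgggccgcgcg
Iars, chr13:49682117-49682164, plus strand: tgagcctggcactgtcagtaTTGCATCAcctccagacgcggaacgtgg
Tars, chr15:11399646-11399693, minus strand: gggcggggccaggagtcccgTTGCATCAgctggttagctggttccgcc
Yars, chr4:129189886-129189933, plus strand: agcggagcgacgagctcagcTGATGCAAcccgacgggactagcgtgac

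Counting the start base as 1, the matches began at -112 and 10 in Aars, -30 in Gars, 8 in Iars, -15 in Tars and 4 in Yars. The motif was present in 5 of 13 cytosolic genes with a promoter, in 0 of 14 mitochondrial genes and in 0 of 2 scaffold genes. Of all 32851 promoters of that length, 1304 (3.97%) held it. A match is a stretch of letters and not a measured binding site.

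Expression of the cytosolic synthetases was compared first. Of 20 genes, 9 rose in KO cells, 4 fell and 7 did not pass the test, which calls 65.0% of the group. Across all tested genes 42.7% were called, 21.7% higher and 21.1% lower, and the share of cytosolic members called higher was 45.0%. Cytosolic members are abundant, and among genes with at least 10 CPM 26.4% were called higher. The median log2 fold change was 0.11 for the 20 genes and -0.0019 for all tested genes. The changes were small, between -0.30 and 0.49, and none passed a limit of 0.5 on the log2 scale, which 7.35% of all tested genes passed upward and 8.44% downward.

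**Figure D1:**
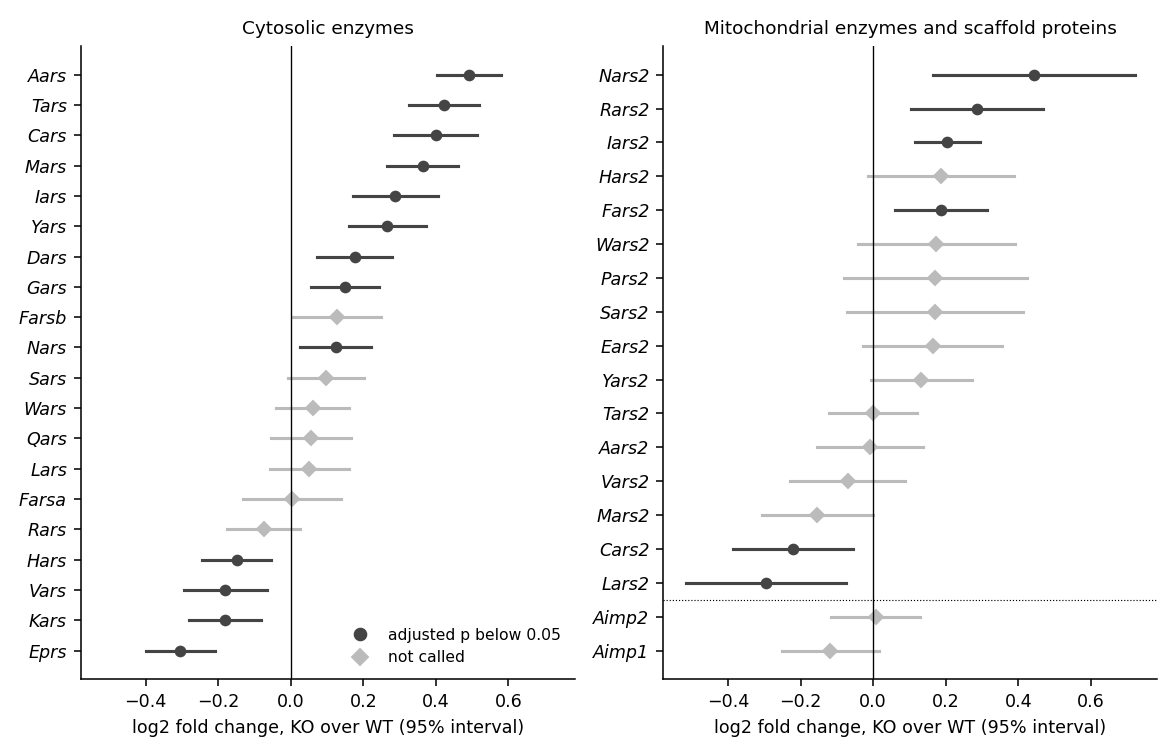
Log2 fold change, KO over WT, of the 20 cytosolic enzymes (left) and of the 16 mitochondrial enzymes with the 2 scaffold proteins under the dotted line (right); points are edgeR estimates and bars are 95% intervals. Dark circles passed an adjusted p of 0.05: 9 cytosolic genes lie right of 0 and 4 left of it, against 4 and 2 mitochondrial genes.

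Aars, the alanine enzyme (chromosome 8, 111033144 to 111057664 in GRCm38), changed most. It had 692, 743, 728 and 705 CPM in KO libraries 1 to 4, against 517, 512, 501 and 511 CPM in WT libraries 1 to 4. Every KO library was above every WT library, and the log2 fold change was 0.49 (SE 0.04, edgeR adjusted p = 1.32e-07).

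Tars, the threonine enzyme (chromosome 15, 11382301 to 11399665), had 215, 218, 229 and 228 CPM in KO libraries and 171, 162, 162 and 169 CPM in WT libraries. The groups were well apart, with a log2 fold change of 0.42 (SE 0.05, edgeR adjusted p = 1.76e-06). Genes of chromosome 15 were slightly higher in KO cells as a group (median 0.11), and Tars centred on the other genes of its chromosome gave 0.32 (edgeR adjusted p = 4.34e-05).

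Cars, the cysteine enzyme (chromosome 7, 143557230 to 143600090), had 65.3, 72.7, 70.2 and 68.5 CPM in KO libraries, against 54.3, 50.8, 51.2 and 53.3 CPM in WT libraries. It was the least abundant cytosolic synthetase per length in both groups, and it rose without overlap by 0.40 on the log2 scale (SE 0.05, edgeR adjusted p = 2.03e-05).

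Mars, the methionine enzyme that also charges the initiator tRNA (chromosome 10, 127296221 to 127311786), had 223, 237, 226 and 238 CPM in KO libraries and 179, 171, 186 and 181 CPM in WT libraries. These groups did not overlap either, and the log2 fold change was 0.36 (SE 0.05, edgeR adjusted p = 1.02e-05). Its end overlaps 68 bases of Ddit3 on the other strand, and Ddit3, the stress factor CHOP, had a log2 fold change of 0.03 (edgeR adjusted p = 0.761) with 9.64% as many counts as Mars.

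Among the other increases, Iars, the isoleucine enzyme, averaged 188 ± 9.25 CPM in KO cells and 154 ± 9.86 CPM in WT cells (SD, n = 4 each), a log2 fold change of 0.29. Yars, for tyrosine, averaged 147 ± 3.49 CPM in KO cells and 122 ± 6.43 CPM in WT cells, a change of 0.27. Dars, for aspartate, averaged 140 ± 4.90 CPM in KO cells and 124 ± 4.88 CPM in WT cells, a change of 0.18. In all 3 genes the KO libraries lay above the WT libraries without overlap.

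Gars, for glycine, was the most abundant member per length. It had 412, 431, 440 and 442 CPM in KO libraries, against 401, 381, 396 and 378 CPM in WT libraries, a log2 fold change of 0.15 (SE 0.04, edgeR adjusted p = 0.0119) without overlap. Nars, for asparagine, averaged 193 ± 7.86 CPM in KO cells and 177 ± 4.15 CPM in WT cells. Its KO library 1 and WT library 1 both lay at 183 CPM, and its change of 0.12 was the closest to the threshold (edgeR adjusted p = 0.0426). The Nars call was lost when any of 6 of the 8 libraries was left out.

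Eprs, the bifunctional enzyme for glutamate and proline and the most abundant cytosolic member in CPM (chromosome 1, 185363044 to 185428360), moved the other way. It had 838, 762, 787 and 771 CPM in KO libraries, against 938, 1012, 973 and 976 CPM in WT libraries. All KO libraries were below all WT libraries, and the log2 fold change was -0.30 (SE 0.04, edgeR adjusted p = 4.62e-05).

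Kars, the lysine enzyme, fell to 200 ± 5.86 CPM in KO cells, against 227 ± 8.73 CPM in WT cells (log2 fold change -0.18). Hars, the histidine enzyme, fell to 94.8 ± 2.16 CPM in KO cells, against 105 ± 1.11 CPM in WT cells (-0.15). In neither gene did the groups overlap. Hars and Hars2 share 198 bases on opposite strands. Vars, the valine enzyme, averaged 284 ± 20.8 CPM in KO cells and 322 ± 11.2 CPM in WT cells (-0.18, edgeR adjusted p = 0.0132), but KO library 2, at 309 CPM, exceeded WT library 1, at 308 CPM. The Vars call was lost without KO library 1 (adjusted p = 0.0531), KO library 4 (0.0515) or WT library 2 (0.0529), and Hars lost its call without KO library 3 (0.0541), all with edgeR.

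The remaining 7 cytosolic genes did not pass the test. Their log2 fold changes were -0.07 for Rars, 0.00 for Farsa, 0.05 for Lars, 0.06 for Qars, 0.06 for Wars, 0.10 for Sars and 0.13 for Farsb. Farsa and Farsb encode the catalytic and the other subunit of the one phenylalanine enzyme. Farsa averaged 81.5 ± 5.60 CPM in KO cells and 81.2 ± 5.71 CPM in WT cells, and Farsb averaged 83.5 ± 3.41 CPM in KO cells and 76.5 ± 5.10 CPM in WT cells. The 95% interval was -0.13 to 0.14 for Farsa and 0.01 to 0.25 for Farsb (edgeR adjusted p = 0.0872), which reaches from near 0 to a small increase for Farsb. Without WT library 4, the library farthest from its group, Farsb (adjusted p = 0.0223) and Sars (0.0481) passed the edgeR test while Nars did not, and 10 cytosolic genes were called higher.

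**Figure D2:**
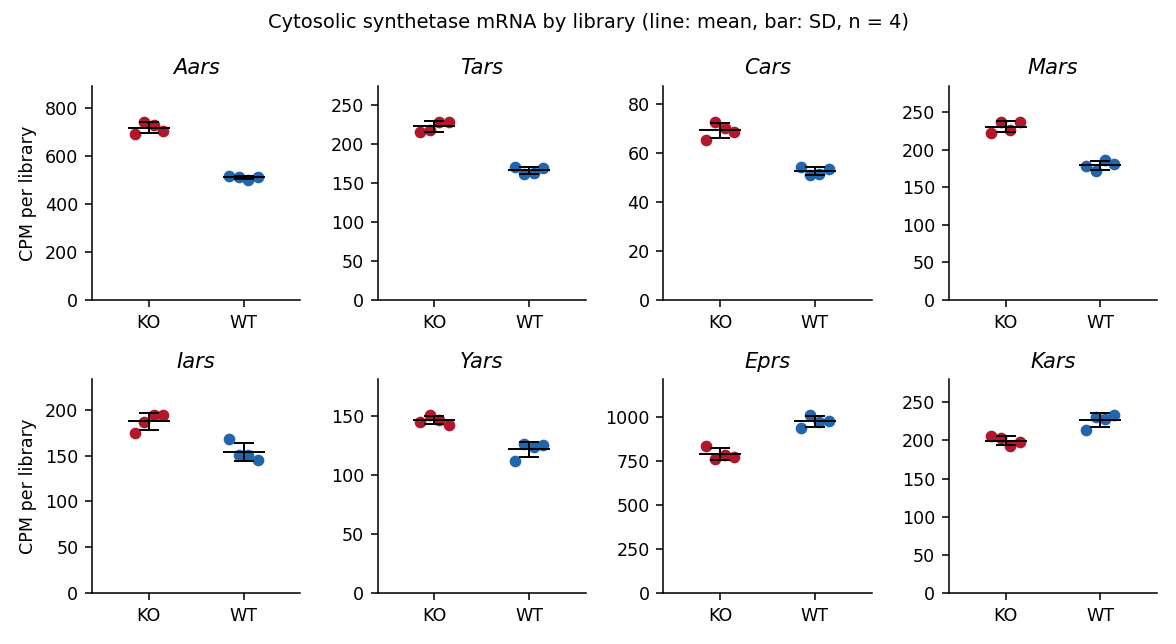
CPM of 8 cytosolic synthetases in each library (points, KO red and left, WT blue and right), with the mean as a line and the SD as a bar (n = 4 each); axes start at 0. Aars, Tars, Cars, Mars, Iars and Yars lie higher in all KO libraries than in any WT library, and Eprs and Kars lie lower.

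Summed over the 20 cytosolic genes, the family took 0.456 ± 0.00507% of all counts in KO libraries and 0.436 ± 0.00437% in WT libraries (SD, n = 4 each). The KO range, 0.450 to 0.461%, did not overlap the WT range, 0.429 to 0.439%. In CPM the sum averaged 4585 in KO cells and 4349 in WT cells. Aars alone, at 717 CPM in KO cells and 510 CPM in WT cells, made up most of that gap. The sum without Aars was not tested, so the summed level does not show a rise of the whole family.

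Cytosolic genes were next divided by whether they are known as ATF4 targets. The 12 linked genes were Aars, Cars, Eprs, Gars, Iars, Lars, Mars, Nars, Sars, Tars, Wars and Yars. Of these, 8 rose (66.7%, against 21.7% of all tested genes), 1 (Eprs) fell (8.33%, against 21.1%) and 3 (Lars, Sars and Wars) did not pass. The median log2 fold change of the 12 was 0.21. Of the other 8, Dars rose (12.5%, against 21.7%), Hars, Kars and Vars fell (37.5%, against 21.1%) and 4 did not pass. The median of these 8 was -0.04. The difference between these groups of genes was not tested. Of the 9 cytosolic genes that rose, 7 had a promoter in the table, and 5 of these held the motif shown above. Of the 11 that did not rise, 6 had a promoter and 0 held it.

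Atf4 itself, on chromosome 15, had 664, 708, 697 and 691 CPM in KO libraries, against 398, 406, 385 and 405 CPM in WT libraries. It was higher in every KO library, with a log2 fold change of 0.79 (SE 0.04, edgeR adjusted p = 7.27e-10). Of 7 core genes of the integrated stress response, 2 rose (28.6%, against 21.7% of all tested genes) and 1 fell (14.3%, against 21.1%). Together 42.9% were called, near the 42.7% of all tested genes. Atf4 and Eif2ak1 (0.25), which encodes the heme-regulated eIF2 kinase, rose, while Eif2s1 (-0.19), which encodes the alpha subunit of eIF2, fell. Centred on chromosome 12, Eif2s1 gave -0.10 and was no longer called (edgeR adjusted p = 0.118).

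Of 24 known ATF4 targets outside the family, 10 rose (41.7%, against 21.7% of all tested genes), 8 fell (33.3%, against 21.1%) and 6 did not pass. Their median log2 fold change was 0.00, and 8 of the 21 with a promoter held the motif. Among those 8, Asns and Chac1 rose, Trib3, Atf3 and Slc7a11 fell, and Pycr1, Nupr1 and Vldlr did not pass. Whether the motif goes with the direction of change was not tested, here or in the cytosolic genes. Aldh18a1, which makes the precursor of proline, averaged 82.6 ± 5.01 CPM in KO cells and 40.7 ± 3.09 CPM in WT cells, a change of 1.02. Psat1, of serine synthesis, averaged 304 ± 1.15 CPM in KO cells and 179 ± 5.60 CPM in WT cells, a change of 0.76. Both lie on chromosome 19, whose tested genes had a median of 0.51, and after centring they gave 0.51 and 0.25. Slc7a11, the cystine carrier, fell to 87.3 ± 6.45 CPM in KO cells, against 139 ± 8.52 CPM in WT cells, a change of -0.67 (-0.45 centred on chromosome 3). Chac1, which degrades glutathione, was low at 5.41 ± 0.656 CPM in KO cells and 3.51 ± 1.33 CPM in WT cells, with overlap between groups (0.63, edgeR adjusted p = 0.0252), and was not called without KO library 1 (0.0719), WT library 3 (0.0829) or WT library 4 (0.0658).

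The multi-tRNA synthetase complex was then considered as a group. Of its 10 members examined, Mars, Iars and Dars rose, Eprs and Kars fell, and Lars, Qars, Rars, Aimp1 and Aimp2 did not pass. This is 5 of 10 called, near the 42.7% of all tested genes. These 10 genes together took 0.195 ± 0.00435% of counts in KO libraries and 0.207 ± 0.00328% in WT libraries. Their summed CPM averaged 1958 in KO cells and 2070 in WT cells, a smaller gap than that of Eprs alone. Eef1e1, a further scaffold gene of the complex, is not in that sum and had a log2 fold change of 0.11 (edgeR adjusted p = 0.158). Aimp1, the scaffold protein that is also secreted as a cytokine, had 51.7, 47.5, 47.7 and 44.1 CPM in KO libraries and 50.2, 48.7, 53.6 and 55.0 CPM in WT libraries (log2 fold change -0.12). Aimp2, the core scaffold protein, had 34.7, 33.9, 32.7 and 34.2 CPM in KO libraries, against 33.5, 35.1, 34.2 and 32.2 CPM in WT libraries (0.01). Aimp2 shares 1548 bases on the other strand with Eif2ak1, a gene with more counts. Both scaffold genes overlapped between groups, and the 95% interval was -0.25 to 0.02 for Aimp1 and -0.12 to 0.13 for Aimp2.

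By enzyme architecture, class I enzymes, which share the Rossmann fold, and class II enzymes, which share an antiparallel sheet, were counted apart. Of 19 class I genes 6 rose and 4 fell (52.6% called), and of 17 class II genes 7 rose and 2 fell (52.9% called), against 42.7% of all tested genes and 49.2% of those with at least 10 CPM. The difference between the classes was not tested. Eprs, which joins a class I and a class II enzyme, was counted in class I.

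Of the mitochondrial synthetases, 6 of 16 were called (37.5%, against 42.7% of all tested genes), and their level was lower than that of the cytosolic genes. The median level per length was 5.19 CPM per kb of transcript in KO cells and 5.12 in WT cells, against cytosolic medians of 36.6 in KO cells and 33.7 in WT cells. Of the 16 genes 4 rose, 2 fell and 10 did not pass, with a median log2 fold change of 0.17. Fewer counts stand behind these values than behind those of the cytosolic genes.

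Iars2, the isoleucine enzyme of mitochondria (chromosome 1, 185284726 to 185329396), had 268, 282, 266 and 270 CPM in KO libraries, against 233, 236, 237 and 236 CPM in WT libraries. The groups did not overlap, and the log2 fold change was 0.20 (SE 0.04, edgeR adjusted p = 0.00102). Iars2 shares 2034 bases on the other strand with Rab3gap2, which had 45.5% as many counts and a log2 fold change of -0.05. Nars2, for asparagine (chromosome 7, 96951505 to 97064758), was the least abundant member per length. It had 16, 10.5, 15.4 and 13.4 CPM in KO libraries and 10.6, 8.75, 9.58 and 11.8 CPM in WT libraries. KO library 2 fell within the WT range, and the log2 fold change of 0.44 had a wide interval, 0.16 to 0.72 (SE 0.13, edgeR adjusted p = 0.0123).

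Rars2, for arginine, averaged 21.1 ± 2.24 CPM in KO cells and 17.4 ± 0.819 CPM in WT cells, a log2 fold change of 0.29 without overlap. Fars2, for phenylalanine, averaged 49.2 ± 2.29 CPM in KO cells and 43.2 ± 2.24 CPM in WT cells, a change of 0.19, also without overlap. Without KO library 3, edgeR called neither Rars2 (adjusted p = 0.0578) nor Fars2 (0.0631), which left 2 mitochondrial genes higher. Fars2 was not called without WT library 1 either (0.0558). Fars2 overlaps 920 bases of Nrn1 on the other strand, a gene with far more counts. No source used here states whether the counting used strand.

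Cars2, for cysteine, averaged 20.7 ± 1.95 CPM in KO cells and 24.2 ± 0.886 CPM in WT cells, a log2 fold change of -0.22 (edgeR adjusted p = 0.0300) with overlap, since KO library 1, at 23.2 CPM, exceeded WT library 4, at 22.9 CPM. It overlaps 984 bases of Naxd on the other strand. DESeq2 did not call it (adjusted p = 0.0655), and edgeR did not call it without KO library 2 (0.101), KO library 3 (0.0916), WT library 2 (0.0780) or WT library 3 (0.0829). The cytosolic partner Cars rose, and the log2 ratio of Cars to Cars2 counts was 1.74 on average in KO libraries and 1.12 in WT libraries, without overlap.

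Lars2, the leucine enzyme of mitochondria (chromosome 9, 123366927 to 123462666), stood apart from the other mitochondrial members. It had 674, 449, 500 and 549 CPM in KO libraries, against 654, 597, 624 and 794 CPM in WT libraries. KO library 1 was above 3 of the WT libraries, and the log2 fold change was -0.30 (SE 0.10, edgeR adjusted p = 0.0307). DESeq2 did not call it (adjusted p = 0.169), and edgeR did not call it without KO library 2 (0.124), KO library 3 (0.0969), KO library 4 (0.0549) or WT library 4 (0.101).

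The spread of Lars2 between replicates was the widest among the members with at least 100 CPM. Its coefficient of variation was 17.8% in KO libraries and 13.1% in WT libraries. Over those 18 members the median was 3.35% in either group, and the highest of the others was 7.32% in KO libraries and 6.42% in WT libraries. Lars2 also had 49.0 CPM per kb in KO cells and 60.1 in WT cells, where the next mitochondrial member, Iars2, had 30.6 in KO cells and 26.5 in WT cells.

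The noncoding genes Gm26917 (a lincRNA in the table, chromosome 17) and Gm23935 (a miRNA in the table, chromosome 16) were looked up after Lars2 had been seen. Gm26917 had 518, 321, 336 and 337 CPM in KO libraries, against 428, 514, 470 and 708 CPM in WT libraries. Gm23935 had 3080, 1966, 2100 and 2574 CPM in KO libraries, against 2733, 2681, 2855 and 3649 CPM in WT libraries. In all 3 genes KO library 1 was the highest KO library and WT library 4 the highest WT library. Their part in the Lars2 result was not tested.

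**Figure D3:**
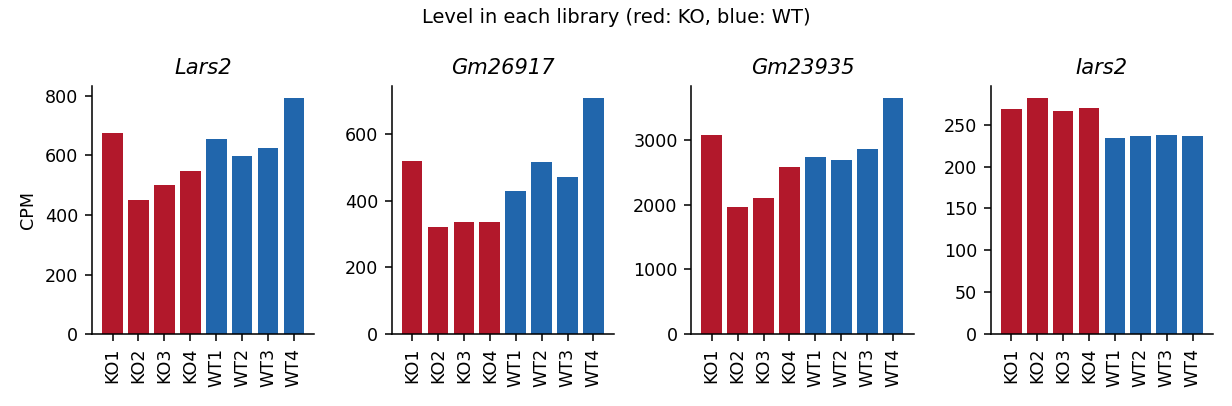
CPM of Lars2, Gm26917, Gm23935 and, for comparison, Iars2 in KO libraries 1 to 4 (red) and WT libraries 1 to 4 (blue); each panel has its own axis from 0. In the first 3 panels KO library 1 and WT library 4 are the highest of their groups, while Iars2 runs from 266 to 282 CPM in KO libraries and from 233 to 237 CPM in WT libraries.

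Lars2 also decided the summed level. All 16 mitochondrial genes took 0.120 ± 0.00900% of counts in KO libraries and 0.128 ± 0.00780% in WT libraries, with overlap. The 15 genes without Lars2 took 0.0659 ± 0.00102% in KO libraries and 0.0613 ± 0.00114% in WT libraries, where the KO range of 0.0648 to 0.0669% did not overlap the WT range of 0.0599 to 0.0626%. The direction of the sum thus turned when Lars2 was left out.

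The 10 mitochondrial genes that did not pass lay between -0.15 (Mars2) and 0.19 (Hars2). Ears2, Pars2, Sars2 and Wars2 averaged 14.4, 10.3, 12.8 and 13.1 CPM in KO cells and 12.9, 9.12, 11.4 and 11.6 CPM in WT cells, with log2 fold changes of 0.16 to 0.17. Yars2 had a change of 0.13, Aars2 of -0.01, Vars2 of -0.07 and Tars2 of 0.00. The 95% intervals were wide in the least abundant of these, for example -0.08 to 0.42 for Pars2.

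For 13 amino acids a cytosolic and a mitochondrial enzyme were both measured. The cytosolic enzyme had the higher level per length in all but the leucine pair. The largest gap was that of Nars over Nars2, 36.9-fold in KO cells and 46.0-fold in WT cells. The log2 ratio of the cytosolic to the mitochondrial enzyme was higher in all KO libraries than in any WT library for Aars (4.70 in KO, 4.20 in WT), Cars, Mars (2.37 in KO, 1.84 in WT) and Tars (2.10 in KO, 1.68 in WT). It was lower in all KO libraries for Rars (2.32 in KO, 2.68 in WT). The other 8 pairs overlapped between groups.

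**Figure D4:**
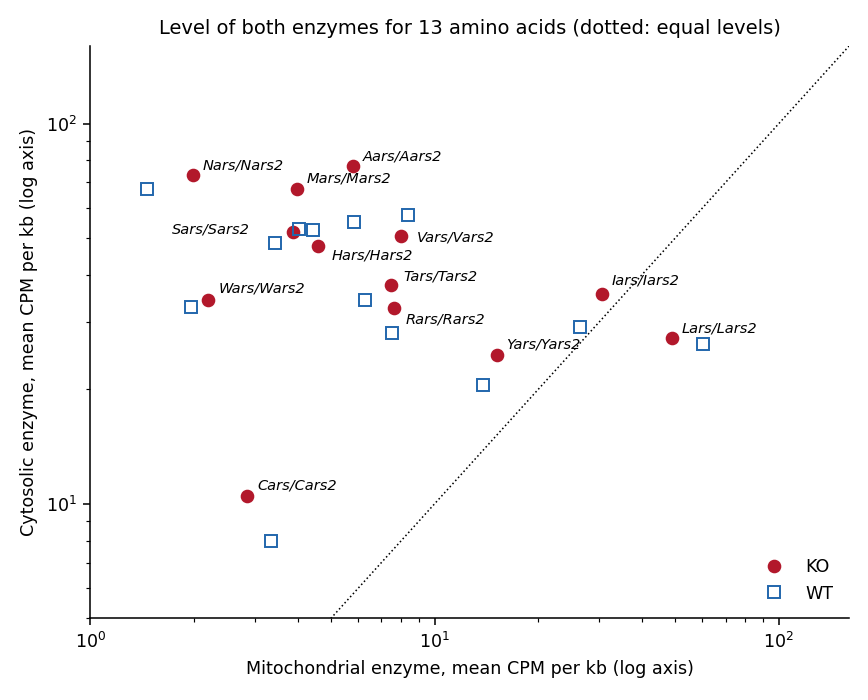
Mean level of the cytosolic enzyme (y) against its mitochondrial partner (x) in CPM per kb for 13 amino acids, both axes logarithmic, KO as red circles and WT as open blue squares (means of 4 libraries), with labels beside the KO points. All pairs but Lars/Lars2 lie above the dotted line of equal levels, and Nars/Nars2 lies farthest from it.

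Position on the genome moved with some of these values. The tested genes of chromosome 3, which carries Mttp, had a median log2 fold change of -0.22, and 4 members lie there: Sars, Tars2, Wars2 and Aimp1. Sars, the serine enzyme, had 260, 283, 270 and 257 CPM in KO libraries and 237, 244, 254 and 264 CPM in WT libraries, a log2 fold change of 0.10 (edgeR adjusted p = 0.127). Relative to the other genes of its chromosome it was 0.32 higher (edgeR adjusted p = 8.81e-05). Tars2, the mitochondrial threonine enzyme, had 48.5, 55.1, 50.9 and 53.3 CPM in KO libraries and 49.6, 52.6, 52.5 and 53.2 CPM in WT libraries. Wars2, for tryptophan, had 13.5, 12.3, 13.7 and 12.8 CPM in KO libraries and 12.2, 12.3, 12.5 and 9.46 CPM in WT libraries. Both genes overlapped between groups. Centred like Sars, Wars2 gave 0.40 and Tars2 0.22, both called, and Aimp1 gave 0.11, not called and opposite in sign to its uncentred value.

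**Figure D5:**
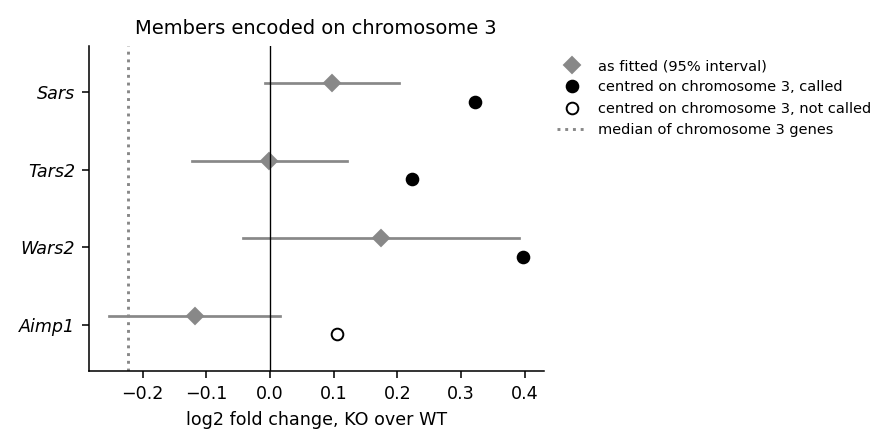
Log2 fold change, KO over WT, of the 4 members on chromosome 3, as fitted (grey diamonds with 95% intervals) and centred on the other genes of chromosome 3 (circles, filled where called). The dotted line marks the chromosome median of -0.22; no member was called as fitted, and Sars, Tars2 and Wars2 were called after centring.

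Centring every chromosome on its own median left 11 cytosolic genes higher and 3 lower, where 19.4% of all tested genes were then higher and 19.6% lower. Sars and Wars, at 0.32 and 0.15, joined those called higher, and Vars, at -0.13, was no longer called lower (edgeR adjusted p = 0.0723). Of the 16 mitochondrial genes 6 were then higher, with Tars2 and Wars2 added, and 2 lower. Of the ATF4-linked genes 10 of 12 were higher.

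Genes that work beside the synthetases were then examined. Of 11 partners of tRNA charging, 2 rose and 2 fell (18.2% each way, close to the 21.7% higher and 21.1% lower of all tested genes). Sepsecs, which makes selenocysteine on its tRNA, averaged 26.2 ± 1.01 CPM in KO cells and 19.3 ± 0.924 CPM in WT cells, a log2 fold change of 0.44 without overlap. Dtd1, a deacylase that clears mischarged D-amino acids, fell to 7.63 ± 0.315 CPM in KO cells, against 11.3 ± 2.20 CPM in WT cells (-0.57, without overlap). Xpot, the export receptor of tRNAs, averaged 210 ± 6.35 CPM in KO cells and 191 ± 8.72 CPM in WT cells (0.14, edgeR adjusted p = 0.0308), with overlap. It was called neither after centring (0.0754) nor when any of 5 libraries was left out (edgeR adjusted p up to 0.0851, without KO library 3). Gatb, a subunit of the mitochondrial amidotransferase that makes glutaminyl-tRNA, had a change of -0.21 and lies on chromosome 3, where centring gave 0.01 (edgeR adjusted p = 0.933).

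Of 5 cytosolic elongation factor genes, Eef1g rose and Eef1a1, whose product brings charged tRNAs to the ribosome, fell by 0.11 on the log2 scale. The Eef1a1 call was lost after centring (edgeR adjusted p = 0.0635) and without KO library 3 (0.0838), KO library 4 (0.0697), WT library 2 (0.0628), WT library 3 (0.0776) or WT library 4 (0.0557), and after centring Eef1d was called lower in its place (-0.13, edgeR adjusted p = 0.0256). Eef1g averaged 618 ± 26.1 CPM in KO cells and 421 ± 25.1 CPM in WT cells (0.55), but it lies on chromosome 19 and centring gave 0.04 (edgeR adjusted p = 0.560). Of 9 mitochondrial translation factors 2 rose (22.2%) and 3 fell (33.3%), against 21.7% and 21.1% of all tested genes. Mtrf1l, a release factor, averaged 10.5 ± 1.28 CPM in KO cells and 14.0 ± 1.21 CPM in WT cells (-0.42). Gfm1, an elongation factor on chromosome 3, averaged 118 ± 1.98 CPM in KO cells and 148 ± 2.56 CPM in WT cells (-0.32, centred -0.10, edgeR adjusted p = 0.0852). Mrrf, the ribosome recycling factor, had a change of -0.24 and Mtif2, the initiation factor, of 0.25. Each of these 2 calls was lost when any of 5 libraries was left out.

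Across the 38 members, 13 rose (34.2%, against 21.7% of all tested genes), 6 fell (15.8%, against 21.1%) and 19 did not pass the test. Libraries did not overlap for 8 cytosolic genes that were higher and 3 that were lower, and for 3 mitochondrial genes that were higher, where 19.7% of all tested genes were higher and 18.9% lower without overlap (38.6% in either direction). Of the 19 called members, 11 kept their call in each of 17 other settings that applied no fold limit. These were Aars, Cars, Dars, Eprs, Iars, Kars, Mars, Tars and Yars among cytosolic genes, and Iars2 and Nars2 among mitochondrial genes.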

How the data were processed

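RNA was measured in 4 MTP KO and 4 WT libraries of stimulated MA-10 cells, grouped by title because the genotype field reads wild type throughout. The authors deposited raw read counts per gene, made from poly-A selected RNA. Their processing notes name HISAT2 2.0.5 and featureCounts 1.5.0-p3, and list GRCh37, hg19 and mm39; positions in the table match GRCm38. How strand and multiply mapped reads were treated is not given in the sources used.

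The main test used edgeR 4.0.16 (R 4.3.3): filterByExpr (minimum count 10, minimum total 15), TMM, quasi-likelihood F test with genotype as the only term, and Benjamini-Hochberg adjustment over 13185 genes. Rose and fell mean an adjusted p below 0.05. The fit was tested on simulated data with 50 genes changed at each fold change, far fewer changed genes than were called here. It recovered 52% of log2 changes of 0.3 and 98% of those of 0.5. Of 190 calls, 15 were false. Levels between genes are CPM per kb of the table's gene length. Intervals (95%) are those of the model.

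Every member is named; values per library are given for called members beyond 0.3 on the log2 scale, the 2 most abundant per length of each class, those on chromosomes shifted by over 0.1, Mttp and Atf4. From other lists, up to 4 called genes with the largest change are given by means. Eef1e1, Eef1d, the Leydig markers, Csf1r, Cdh5, Pecam1, Sox9, Dhh and Ddx4 were named after their values were seen. So were Asns, Trib3, Atf3, Pycr1, Nupr1 and Vldlr. Lars2 values, Gm26917, Gm23935 and the sum without Lars2 were chosen after values were seen. Members and lists were chosen with earlier results of these data known. Alternatives were DESeq2 1.42.0, limma 3.58.1 voom, other scalings and filters, a replicate block, leaving out each library, chromosome centring, protein-coding genes only and a limit of 0.5.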

Additional observations from a re-analysis of the deposited data

Results flagged for a closer look

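In 116 groups of 4 libraries examined for 1 library far from the other 3, 3 stood out, where chance would give 5.8. Wars2 in WT library 4 was the lowest at 9.46 CPM, against 12.2 to 12.5 CPM in the other WT libraries. Gm26917 in KO library 1 was the highest at 518 CPM, against 321 to 337 CPM in the other KO libraries. Xpot in WT library 1 was the highest at 204 CPM, against 186 to 188 CPM in the other WT libraries, which brought it into the KO range.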

How the results depend on the processing

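Counts of calls mostly stayed within 1.5 times their value. A limit of 0.5 on the log2 scale left 969 genes higher and 1113 lower of all tested genes, 0 for the cytosolic, mitochondrial, ATF4-linked and other cytosolic synthetases in either direction, 4 higher and 2 lower among other ATF4 targets, 0 higher and 1 lower among charging partners, 0 lower among cytosolic elongation factors and 0 in both directions among mitochondrial translation factors. Mitochondrial synthetases called lower numbered 0 with DESeq2, 1 without a filter beyond 1 count and 1 with a replicate block. Charging partners called higher numbered 1 with the block and 1 after centring; those called lower numbered 1 with DESeq2, without the filter, with the block and after centring. Cytosolic elongation factors called higher numbered 0 after centring, and those called lower 0 without the filter and 0 with the block. Mitochondrial translation factors called higher numbered 1 with DESeq2 and 1 with the block. The summed share of counts on mitochondrial synthetases was 0.0659% in KO and 0.0613% in WT libraries without Lars2, a choice made after seeing the data.

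Leaving out each library gave 2517 to 2887 genes higher and 2410 to 2792 lower, 8 to 10 cytosolic synthetases higher and 3 to 4 lower, 2 to 5 mitochondrial ones higher and 0 to 2 lower, 7 to 8 ATF4-linked ones higher and 1 lower, 1 to 2 other cytosolic ones higher and 2 to 3 lower, 1 to 2 charging partners higher and 1 to 2 lower, 1 elongation factor higher and 0 to 1 lower, 1 to 2 mitochondrial factors higher and 2 to 3 lower, and 9 to 10 other ATF4 targets higher and 6 to 9 lower.

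Signs turned in 26 values of 5 uncalled members. Farsa gave -0.0057 by total counts, -0.0058 with at least 10 counts in every library, -0.0276 after centring and -0.0448 to 0.0427 with a library left out. Aars2 gave 0.0015 without the filter, 0.0444 after centring and -0.0378 to 0.0313 with a library left out. Tars2 gave 0.0027 with DESeq2, 0.0094 without the filter, 0.0050 over protein-coding genes, 0.22 after centring and -0.0245 to 0.0340 with a library left out. Aimp1 gave 0.11 after centring. Aimp2 gave -0.0035 by total counts, -0.0040 with the stricter filter, -0.0519 after centring and -0.0123 to 0.0294 with a library left out. The cause of these changes was not tested, apart from the limit of 0.5, which by its construction calls fewer genes.

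KO and WT libraries share numbers, but same-numbered libraries did not deviate together (correlations of -0.15, 0.04, 0.04 and -0.15). Some differently numbered libraries correlated more, at 0.18 for KO library 4 with WT library 1 and 0.17 for KO library 1 with WT library 4. Such correlations cannot tell whether same-numbered libraries were prepared together. With the replicate block 4821 genes were called in place of 5632, and 7 cytosolic synthetases were higher, without Gars (adjusted p = 0.0501) and Nars (0.104, edgeR). A p that misses the threshold does not show that a member's level was the same in KO and WT cells.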
